A study of Mus musculus with 200 samples.

Results

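The genes described here are 7 subunits of the GABA-A receptor: Gabra2, Gabra3, Gabra4, Gabra5, Gabrb1, Gabrb2 and Gabrd. They were taken by their symbols from 56941 genes measured by bulk RNA sequencing in one hemisphere of the brain of each of 200 mice. All 7 had reads in every mouse and passed the filter on low counts in every comparison. Each mouse had a closed head injury (CHI), a single impact on the intact skull under anaesthesia, or a sham procedure with anaesthesia and a scalp incision, and was killed 9, 24 or 72 h later.

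The mice belonged to 4 strains as labelled: C57BL/6J (18 sham, 43 CHI), IL-1R1 gKO (18 sham, 37 CHI), IL-1R1 eRestore (17 sham, 33 CHI) and IL-1R1 nRestore (14 sham, 20 CHI). The labels tie the last 3 to the interleukin-1 receptor but give neither their alleles, the promoter or cell type that drives a restored receptor, nor their genetic background. The 24 groups of strain, surgery and time point held 4 to 15 mice aged 3.3 to 7.67 months. Both sexes were present in every group except IL-1R1 nRestore at 72 h, where all mice were male. The mice came from 8 labelled experiments. Depth ranged from 14857985 to 57355676 estimated counts per mouse, with a median of 20258936. Il1r1, the receptor gene in the strain names, had a mean of 2.21 TPM in C57BL/6J mice and of 4.09 TPM in mice labelled IL-1R1 gKO, so that its gene-level count could not serve as a check of the knockout label. TPM is scaled for transcript length and sequencing depth, so that levels can be compared between genes. All 8 pan-neuronal and all 10 interneuron markers examined were detected in every mouse.

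GABA-A receptors are chloride channels built from a ring of subunits, most often alpha and beta subunits with a gamma or a delta subunit. They carry most fast inhibition in the adult forebrain. The alpha subunit sets much of a receptor's pharmacology and its place on the neuron: alpha 2 is enriched at synapses on the axon initial segment, alpha 5 lies largely outside synapses in the hippocampus, and alpha 4 pairs with delta in extrasynaptic receptors that carry a tonic current. The beta subunits form the GABA binding site together with alpha and are needed for assembly. In bulk tissue, fewer cells of a type and less RNA per cell cannot be told apart.

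In the annotation of mouse genome GRCm39, Gabra2 (ENSMUSG00000000560) lies at chr5:71114573-71253662 on the minus strand. Gabra4 (ENSMUSG00000029211, chr5:71721738-71815722, minus strand) and Gabrb1 (ENSMUSG00000029212, chr5:71815456-72319431, plus strand) follow on the same chromosome, with starts that overlap by 267 bases on opposite strands. Gabra5 (ENSMUSG00000055078) lies at chr7:57055164-57240831 on the minus strand and overlaps Gm9962 among other genes of the opposite strand. Gabra3 (ENSMUSG00000031343) is at chrX:71476275-71700723, Gabrb2 (ENSMUSG00000007653) at chr11:42310493-42523417 and Gabrd (ENSMUSG00000029054) at chr4:155469407-155482872. Whether counting used strand is not stated in the sources used here, so that reads from the overlapping stretches cannot be assigned with certainty to either gene.

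The strain labels were checked against expression with genes picked from the strain comparisons themselves, so that the check depends on those comparisons. The genes with an adjusted p under 0.05 in all 18 comparisons of another strain with C57BL/6J (3 strains, sham and CHI mice apart, 3 time points) were Gabra2 and 12 others, out of 17788 genes tested in all 18, or 0.0731%. The 12 other genes, chosen after their values were seen, were Me3, Gdpd3, Rps3a3, Rps3a2, Gm8730, Gm6969, Capza1-ps1, Wdfy1, Gm36976, Nnt and Gm6278, which were higher in the other strains, and Gm17167, which was lower. Nnt, the mitochondrial transhydrogenase known to be disrupted in C57BL/6J mice, had a median of 1.0 TPM in C57BL/6J mice against 4.34 TPM in IL-1R1 gKO, 4.65 TPM in IL-1R1 eRestore and 4.03 TPM in IL-1R1 nRestore mice. Among the mice of those 3 strains, 2 were nearer to the C57BL/6J level than to their own strain's level on at least 9 of these 12 genes. They were IL-1R1 eRestore sham 24 h replicate 3 (12 of 12 genes) and IL-1R1 nRestore CHI 72 h replicate 6 (11 of 12 genes). No other mouse exceeded 7 of 12. Results that rest on these mice are given with and without them.

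The level of the subunits followed a stable order. Over all 200 mice, Gabra3 was highest at 137 ± 14.4 TPM (SD), followed by Gabrb2 at 92.3 ± 17.7, Gabra4 at 79.9 ± 7.95, Gabrd at 57.5 ± 6.96, Gabra2 at 57.2 ± 24.9, Gabra5 at 41.3 ± 7.18 and Gabrb1 at 24.2 ± 4.73 TPM. Gabra3 exceeded Gabrb2 in all mice but 1, Gabra4 exceeded Gabrd in all 200, and Gabra5 exceeded Gabrb1 in all 200. Gabrb2 and Gabra4 stood less far apart, with Gabrb2 above Gabra4 in 49 of 61 C57BL/6J mice. The mean levels of Gabrd and Gabra2 differed by 0.00922 of their spread, and Gabrd was the higher of the pair in 85 mice.

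That near tie hid a split by strain. In C57BL/6J mice Gabra2 had rank 6 of the 7 subunits, at 25.3 ± 7.67 TPM (SD, n = 61), close to Gabrb1 at 22.8 ± 4.17 TPM, which it exceeded in 41 mice. In each of the other 3 strains its rank was 4, between Gabra4 and Gabrd. The other 6 members kept their order by mean TPM in all 4 strains.

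Among the subunits outside the set, Gabrg1 (18.4 TPM), Gabrg3 (9.28 TPM), Gabrq (1.45 TPM), Gabrr2 (1.11 TPM) and Gabre (0.351 TPM) had lower means over all mice than the 7 members. Gabra6, which is characteristic of cerebellar granule cells, had a median of 0.0509 TPM and was listed at 0 in 83 mice. Gabrr1, Gabrr3 and Gabrp, a retinal pair and a subunit of peripheral epithelia, were listed at 0 in many mice, Gabrr1 in 82 and the other pair in more.

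The largest contrast in these genes lay between strains. Gabra2 ranged from 11.8 to 52.4 TPM in the 61 C57BL/6J mice, with a median of 26.0. It was 32.0 TPM or higher in IL-1R1 gKO mice (median 72.0, mean 69.4 ± 16.4 SD, n = 55), from 33.7 to 97.9 TPM in IL-1R1 eRestore mice (74.6 ± 12.4, n = 50) and from 25.0 to 91.3 TPM in IL-1R1 nRestore mice (69.3 ± 15.0, n = 34). All mice of those 3 strains but 12 lay above the highest C57BL/6J mouse. The 12 were 8 IL-1R1 gKO mice, 3 IL-1R1 nRestore mice and 1 IL-1R1 eRestore mouse.

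**Figure D1:**
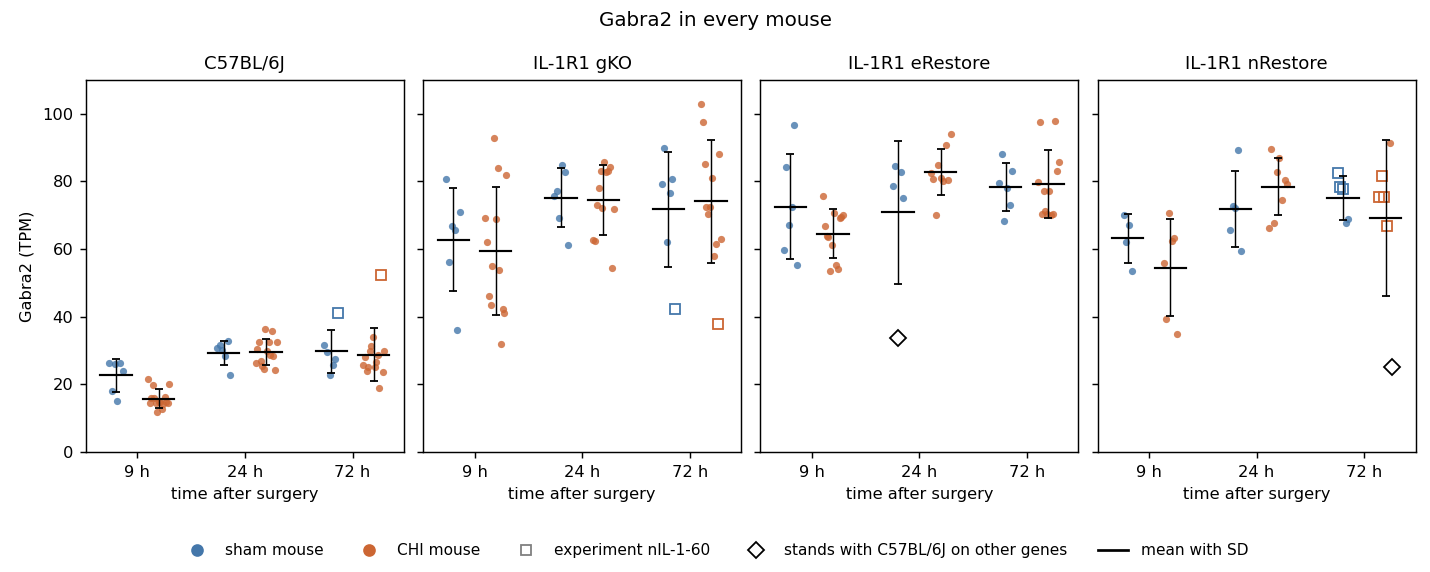
Gabra2 in TPM in each of the 200 mice, by strain, surgery and time point; every point is a mouse, with group mean and SD, open squares for experiment nIL-1-60 and diamonds for the 2 mice that stood with C57BL/6J on the 12 other genes. C57BL/6J mice lie between 11.8 and 52.4 TPM, and most mice of the other 3 strains lie above them, including at 9 h, where the C57BL/6J CHI mice are the lowest group.

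Strain contrasts within sham mice and within CHI mice were added after these levels were seen. The quasi-likelihood test of edgeR called Gabra2 in all 18 of them. Its log2 fold change ran from 1.19 to 2.10 (2.29-fold to 4.29-fold higher than in C57BL/6J mice), with Benjamini-Hochberg adjusted p between 1.09e-05 and 2.06e-26. Over these comparisons, 1.6% of gene tests passed in sham mice and 9.05% in CHI mice. The comparisons of 1 time point share their C57BL/6J mice.

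In sham mice at 9 h, Gabra2 was 15.2, 18.0, 23.9, 26.0, 26.2 and 26.3 TPM in the C57BL/6J mice. The 6 IL-1R1 gKO sham mice of that time point ran from 36.2 to 80.6 TPM with a median of 66.3, and the log2 fold change was 1.65 (SE 0.149, adjusted p = 6.25e-13). The 4 IL-1R1 nRestore sham mice had 53.5, 62.1, 67.1 and 70.1 TPM (log2 fold change 1.85, SE 0.175, adjusted p = 6.51e-12). The groups did not overlap at 9 h, and how many of all genes separated in this way was not counted. In CHI mice at 9 h, the C57BL/6J group had a mean of 15.7 ± 2.74 TPM (SD, n = 15), against 59.4 ± 18.9 in IL-1R1 gKO (n = 13), 64.5 ± 7.24 in IL-1R1 eRestore (n = 12) and 54.4 ± 14.3 in IL-1R1 nRestore mice (n = 6), with log2 fold changes of 2.10, 2.03 and 2.10. At 24 and 72 h the fold changes were smaller, from 1.19 to 1.52 on the log2 scale.

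The difference was also seen within experiments. C57BL/6J mice and mice of another strain were collected in the same experiment at the same time point in 20 pairings. The ratio of mean Gabra2, other strain over C57BL/6J, had a median of 2.69 (range 0.856 to 4.3) and was above 1 in 19 of them. In 17 of them every mouse of the other strain lay above every C57BL/6J mouse. For each other member that count was between 2 and 4. The same count was not made over all genes. The pairings took sham and CHI mice together and reused C57BL/6J mice, and some held 1 mouse of the other strain. The pairing with a ratio under 1 was from experiment nIL-1-60 at 72 h, where 2 IL-1R1 gKO mice had 37.7 and 42.3 TPM. The 2 C57BL/6J mice there had 52.4 and 41.1 TPM. On the 12 other strain genes, each of the 2 IL-1R1 gKO mice was nearer to the C57BL/6J level on 6, and the 2 C57BL/6J mice were nearer to the level of the other strains on 4 and 3. Wdfy1 was 9.05 to 19.9 TPM in these 4 mice, between the strain medians of 6.75 TPM in C57BL/6J and 26.9 TPM in IL-1R1 gKO mice. Other genes were not intermediate: Gdpd3 was 15.0 and 16.7 TPM in the 2 C57BL/6J mice (strain medians 0.67 TPM in C57BL/6J and 14.7 TPM in IL-1R1 gKO), and Gm17167 was 8.32 TPM in the IL-1R1 gKO CHI mouse (strain medians 5.62 and 0.181 TPM). The 7 IL-1R1 nRestore mice of that experiment had at least 66.7 TPM of Gabra2. Without the 2 mice that stood with C57BL/6J on the 12 genes, the log2 fold change of Gabra2 rose from 1.19 to 1.38 in IL-1R1 eRestore sham mice at 24 h and from 1.33 to 1.52 in IL-1R1 nRestore CHI mice at 72 h.

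Lower Gabra2 expression is a known trait of the C57BL/6J substrain. The labels do not give the background of the other strains, and its part in the difference was not tested.

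The other 6 subunits showed no contrast of that size. In 108 tests of those members in the same 18 comparisons, the log2 fold change lay between -0.37 and 0.20. Of these tests, 1 passed with edgeR, and 19 had an unadjusted p under 0.05. Gabra5 was lower in IL-1R1 gKO than in C57BL/6J CHI mice at 24 h (36.6 ± 4.2 against 40.2 ± 3.42 TPM, n = 12 and 14; log2 fold change -0.18, SE 0.0508, adjusted p = 0.0127). It did not pass with limma on log2(TPM + 0.1), where the log2 fold change was -0.13 (adjusted p = 0.153). With DESeq2 and its own size factors, 5 of the 108 tests passed.

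Genes next to Gabra2 passed in few of the 18 strain comparisons, where 1.6% of all gene tests passed in sham and 9.05% in CHI mice. Besides Gabra2 itself, 19 genes within 2 Mb were tested, 18 of them in all 18 comparisons and 1 in 12. Gabrg1, Gabra4 and Gabrb1, which form a cluster of subunit genes with Gabra2, passed in 0 of 18 with edgeR, with median log2 fold changes of 0.01, -0.01 and 0.04. None of the other neighbours passed in more than 2 of 18, the most being Commd8.

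**Figure D2:**
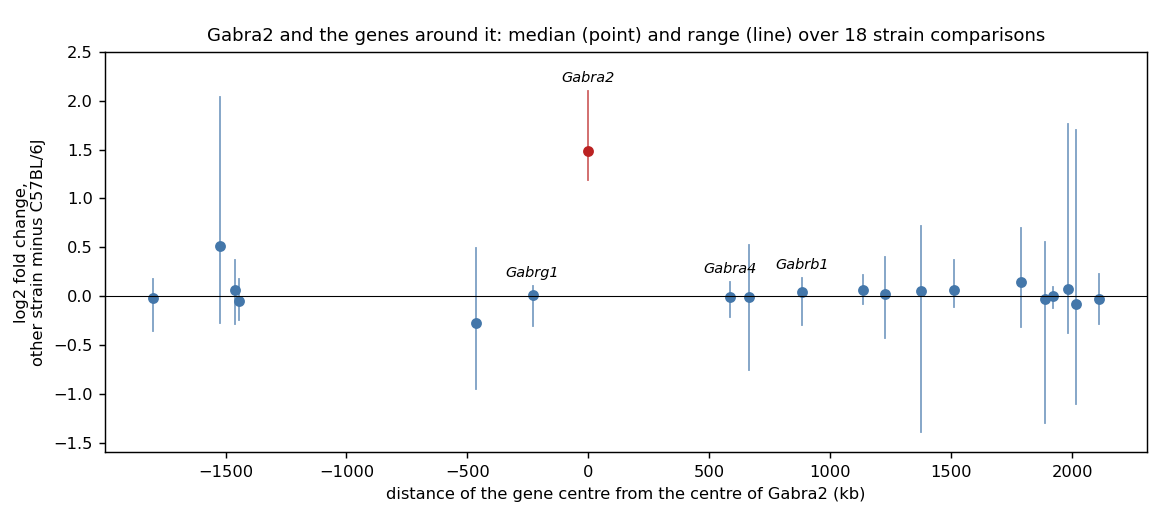
Log2 fold change of another strain against C57BL/6J (y axis) for Gabra2 and the genes around it by distance from its centre in kb (x axis); points are medians and lines ranges over 18 comparisons (12 for 1 gene). Gabra2 lies at 1.49 with a range of 1.19 to 2.10, while Gabrg1, Gabra4 and Gabrb1 lie near 0.

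The reference sequence before the annotated start of Gabra2 and that of its neighbour Gabra4 are shown because the first gene passed in all 18 strain comparisons and the second in none. Each is 250 bases of GRCm39 before the gene's start, 5′ to 3′ on the gene's strand, from chr5:71253663-71253912 for Gabra2 and chr5:71815723-71815972 for Gabra4. Capitals mark a match to the CCAAT box (CCAAT) or the GC box (GGGCGG) on either strand. TATAAA and the E-box CACGTG were searched too, and no searched motif contains another.
Gabra2: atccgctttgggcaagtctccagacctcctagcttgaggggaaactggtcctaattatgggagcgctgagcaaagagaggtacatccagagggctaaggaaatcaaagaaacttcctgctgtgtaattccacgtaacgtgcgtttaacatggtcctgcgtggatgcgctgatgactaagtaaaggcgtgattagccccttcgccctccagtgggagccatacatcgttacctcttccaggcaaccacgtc
Gabra4: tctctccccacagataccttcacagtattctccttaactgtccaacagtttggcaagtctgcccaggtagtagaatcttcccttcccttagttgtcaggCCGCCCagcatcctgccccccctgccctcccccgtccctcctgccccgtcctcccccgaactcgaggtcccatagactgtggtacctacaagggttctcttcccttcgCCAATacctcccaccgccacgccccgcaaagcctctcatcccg
The Gabra2 window held none of the 4 motifs on either strand and had a GC content of 51.6%. The Gabra4 window held 1 CCAAT box and 1 GC box, and 59.6% GC. It lies within Gabrb1 on the opposite strand, so that its motifs cannot be assigned to Gabra4 alone. The Gabra2 window overlaps Gm73674, a long noncoding RNA gene of the opposite strand. Among windows of this length before 21770 protein-coding genes, 36.1% held CCAAT, 29.9% GGGCGG, 12.5% TATAAA and 5.69% CACGTG. The absence of a motif says only that these letters are not in this window of the reference.

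The second question was whether CHI changed these subunits. At 9 h in C57BL/6J mice, Gabra2 fell after CHI and no other member passed the test. The 6 sham mice had 15.2, 18.0, 23.9, 26.0, 26.2 and 26.3 TPM, and the 15 CHI mice ran from 11.8 to 21.5 TPM with a median of 14.8. Of the CHI mice, 9 lay below the lowest sham mouse and all 15 below the sham median. The log2 fold change was -0.48 (SE 0.110, 0.715-fold, edgeR adjusted p = 0.00405). In this comparison 14.1% of 16967 genes passed, so that 1 of 7 members was near the background share.

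C57BL/6J mice of 9 h came from 2 experiments, and the mean was lower in CHI mice in both. In eIL-1-76 it was 15.8 TPM in 10 CHI and 23.6 TPM in 4 sham mice (ratio 0.67), and in eIL-1-80 15.7 TPM in 5 CHI and 20.7 TPM in 2 sham mice (ratio 0.757). With eIL-1-80 alone the test did not pass (log2 fold change -0.27, adjusted p = 0.437). Gabra2 passed when any of the 6 sham mice was left out.

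The beta subunits came closest to the threshold among the other members. Gabrb2 was 84.0 ± 13.3 TPM after CHI and 97.4 ± 21.1 TPM in sham mice (log2 fold change -0.22, SE 0.0757, adjusted p = 0.0527). Gabrb1 was 22.8 ± 4.19 against 26.9 ± 5.8 TPM (log2 fold change -0.25, SE 0.0980, adjusted p = 0.0934). Without sham replicate 4 both passed, and Gabrb2 also passed without sham replicate 2 or 5, with DESeq2 and its own size factors, or when genes had to have 10 counts in every mouse.

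Gabra3, Gabra4, Gabra5 and Gabrd did not pass. Gabra3 was 132 ± 20.5 TPM in sham mice and at least 117 TPM in every CHI mouse, with a log2 fold change of -0.00 (SE 0.0681). Gabra4 was 76.2 ± 12.5 against 76.9 ± 7.26, Gabra5 53.4 ± 11.9 against 49.0 ± 5.47 and Gabrd 50.6 ± 8.57 against 53.6 ± 4.72 TPM. Their log2 fold changes lay between -0.10 and 0.13.

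**Figure D3:**
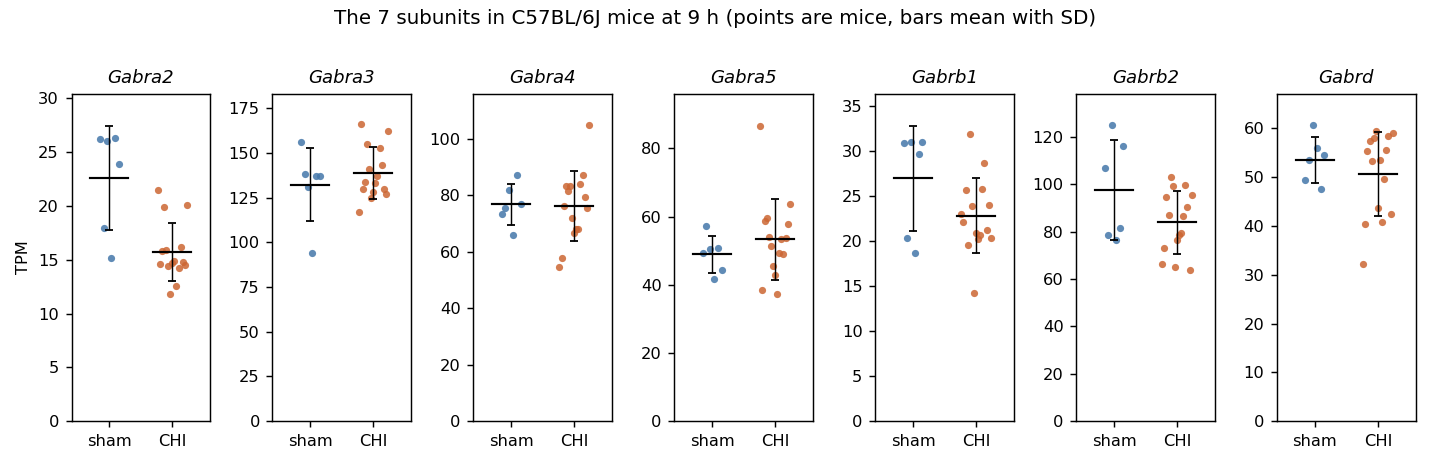
TPM of each of the 7 subunits in the 6 sham and 15 CHI C57BL/6J mice at 9 h; points are mice and bars are means with SD. For Gabra2, the one subunit that passed the test, 9 of 15 CHI mice lie below the lowest sham mouse and 6 within the sham range.

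The same comparison in the other strains gave no call. At 9 h, Gabra2 had a log2 fold change of -0.03 in IL-1R1 gKO (SE 0.131, adjusted p = 0.968), -0.16 in IL-1R1 eRestore (SE 0.0776, adjusted p = 0.193) and -0.34 in IL-1R1 nRestore mice (SE 0.134, adjusted p = 0.303). The share of all genes that passed was 0.199%, 7.34% and 0.608% in these strains. Gabra2 in IL-1R1 nRestore mice was 53.5, 62.1, 67.1 and 70.1 TPM in sham and 34.8, 39.4, 55.9, 62.5, 63.4 and 70.7 TPM in CHI mice, so that the groups overlapped. All IL-1R1 nRestore mice of 9 h came from experiment TM-2-33, in which 2 IL-1R1 gKO sham and 6 CHI mice averaged 46.1 and 46.6 TPM, below the 67.8 to 74.0 TPM of the group means of that strain in the other experiments of 9 h.

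Gabrb2 did not overlap in IL-1R1 nRestore mice at 9 h: the 6 CHI mice had 58.5 to 88.8 TPM and the 4 sham mice 89.7 TPM or more. How many of all genes separated in this way was not counted. The log2 fold change of Gabrb2 was -0.42 (SE 0.125) and did not pass with edgeR (adjusted p = 0.171), where 0.608% of all genes passed. It passed with DESeq2 and its own size factors, and with no filter beyond 1 count, where Gabra2 passed as well. Of the 21 tests of members in these 3 strains at 9 h, 3 had an unadjusted p under 0.05.

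Whether the 9 h effect differed between strains was tested directly. The CHI effect on Gabra2 was higher by 0.45 in IL-1R1 gKO than in C57BL/6J mice (SE 0.173, adjusted p = 0.615), by 0.31 in IL-1R1 eRestore (SE 0.174, adjusted p = 0.629) and by 0.25 in IL-1R1 nRestore mice (SE 0.203, adjusted p = 0.989), all on the log2 scale. None of 63 tests of members over 9 such comparisons passed with edgeR, DESeq2 or limma, and 7 had an unadjusted p under 0.05. Over all genes 0.00419% passed. A difference in the response of Gabra2 between strains was therefore not shown at these group sizes.

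Over the 4 strains together at 9 h, 2 of 7 members passed, a share near the 23.9% of all genes. Gabra2 fell by 0.24 on the log2 scale (SE 0.0664, adjusted p = 0.00505) and Gabrb2 fell by 0.15 (SE 0.0521, adjusted p = 0.0256). Gabrb2 did not pass with limma on log2(TPM + 0.1) (log2 fold change -0.16, adjusted p = 0.0739). The other members lay between -0.06 and 0.10. At 24 and 72 h no member passed in the pooled fits, with log2 fold changes from -0.06 to 0.08, where 1.48% and 0.706% of all genes passed. None of these 14 tests had an unadjusted p under 0.05, and DESeq2 and limma called none.

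**Figure D4:**
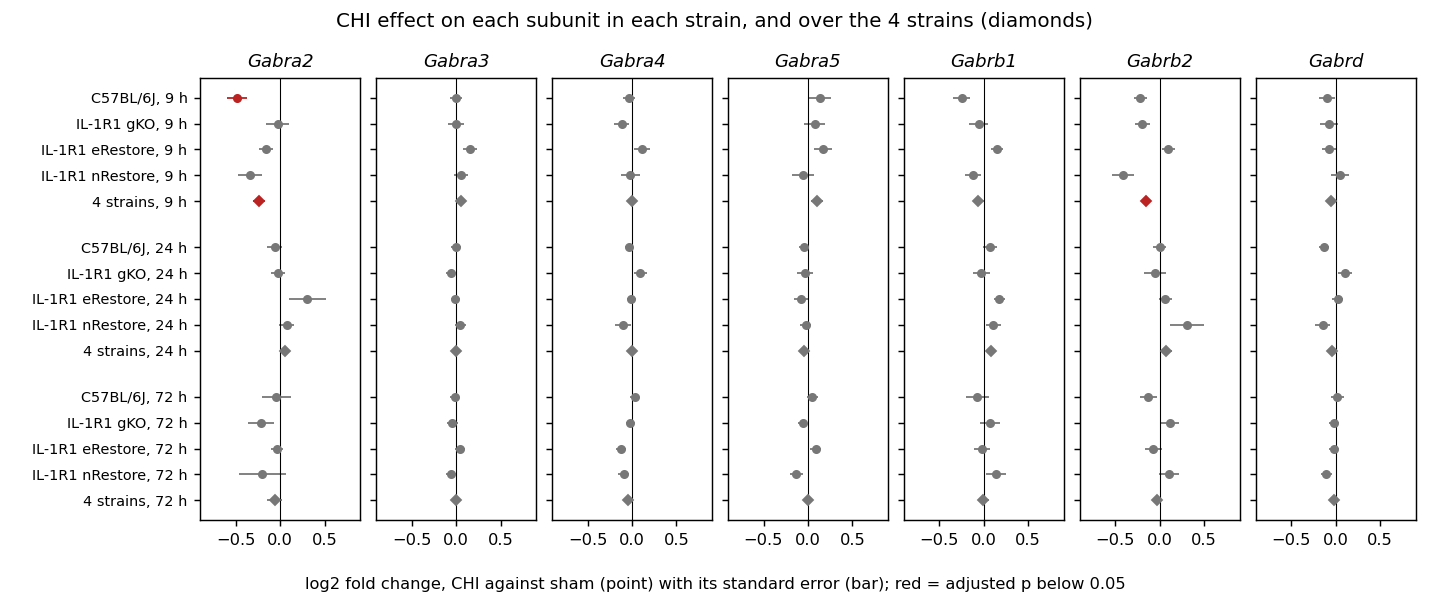
Log2 fold change of CHI against sham (x axis) for each subunit in each strain and time point, with diamonds for the 4 strains together; bars are standard errors and red marks an adjusted p under 0.05. Gabra2 at 9 h in C57BL/6J mice (-0.48) and Gabra2 and Gabrb2 over the 4 strains at 9 h (-0.24 and -0.15) are the marked points.

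At 24 and 72 h no member passed in any strain. Over these 8 comparisons 0.0531% of gene tests passed. Of the 56 tests of members, 3 had an unadjusted p under 0.05 (Gabrd in C57BL/6J at 24 h, Gabrb1 in IL-1R1 eRestore at 24 h and Gabra4 in IL-1R1 eRestore at 72 h), and DESeq2 and limma called none. Gabra2 in C57BL/6J mice was 29.6 ± 3.95 TPM after CHI and 29.4 ± 3.56 TPM in sham mice at 24 h, and 28.8 ± 7.75 against 29.7 ± 6.35 TPM at 72 h. Some values rested on the mice that stood with C57BL/6J. Gabra2 had a log2 fold change of 0.31 in IL-1R1 eRestore mice at 24 h (SE 0.206) and of 0.06 (SE 0.0579) without sham replicate 3, and of -0.20 in IL-1R1 nRestore mice at 72 h (SE 0.263) and -0.02 (SE 0.0679) without CHI replicate 6.

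The CHI effect at 9 h was compared with that at 24 and 72 h within each strain. Mice of 9 h came from other experiments and, by the authors' account, were collected at another time of day. In C57BL/6J mice the effect on Gabra2 was lower by 0.41 than at 24 h (SE 0.177, adjusted p = 0.204) and by 0.46 than at 72 h (SE 0.178, adjusted p = 0.11). None of 56 tests of members passed with edgeR or DESeq2, 8 had an unadjusted p under 0.05, and 1.68% of all gene tests passed. Without experiment nIL-1-60, whose C57BL/6J mice had the highest Gabra2 of their strain, both differences passed (log2 differences of -0.42, adjusted p = 0.0478, and -0.50, adjusted p = 0.0221). The C57BL/6J mice of that experiment were all of 72 h, so that they entered the difference from 24 h only through the shared fit. That experiment was left out after the data, Gabra2 included, were seen, so that these 2 results are not independent of that choice.

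No member passed the test of a CHI effect that differed between females and males. Of 42 tests over 6 comparisons none passed with edgeR or DESeq2, 3 had an unadjusted p under 0.05, and 0.000943% of all gene tests passed. Gabra2 had sex differences in the CHI effect between -0.10 and 0.07 on the log2 scale.

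Across the 12 comparisons of CHI with sham, the log2 fold change of Gabra3 lay between -0.06 and 0.16, of Gabra4 between -0.12 and 0.11, of Gabra5 between -0.13 and 0.17 and of Gabrd between -0.15 and 0.10. The beta subunits had wider ranges, -0.25 to 0.18 for Gabrb1 and -0.42 to 0.31 for Gabrb2. The largest standard error of these comparisons was 0.195 for Gabrb2 and 0.263 for Gabra2.

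Sham mice differed between time points, but time since surgery, time of day, age and experiment cannot be told apart there. The 3 experiments with 9 h mice held no mice of 24 or 72 h. The authors state that procedures were done in the morning, so that tissue of 9 h was collected at another time of day. They name this as a possible source of variation in activity-regulated and synaptic genes. In C57BL/6J sham mice, Gabra2 was lower at 9 h than at 24 h (22.6 ± 4.83 against 29.4 ± 3.56 TPM; log2 fold change -0.42, SE 0.151, adjusted p = 0.0315). Gabra5 was higher at 9 h than at 24 h (49.0 ± 5.47 against 40.9 ± 3.42 TPM; 0.31 on the log2 scale, adjusted p = 0.0433) and than at 72 h (37.5 ± 1.95 TPM; 0.49, adjusted p = 0.00108). Gabrb1 was higher at 9 h than at 24 h by 0.41 (adjusted p = 0.014), and Gabra3 by 0.27 than at 72 h (adjusted p = 0.0126), although its mean TPM at 72 h was no lower than the 132 ± 20.5 TPM of 9 h. The call of Gabra5 against 24 h was lost with RLE factors (adjusted p = 0.0528) and with 10 counts in every mouse (adjusted p = 0.0547). These counts of 3 and 2 members stood against 26.9% and 29.5% of all genes. In the other 3 strains none of 42 tests of members passed with edgeR, 5 had an unadjusted p under 0.05, DESeq2 called 1, and 10.4% of all gene tests passed.

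Markers of another region differed between C57BL/6J mice of 9 h and those of 24 and 72 h, which came from other experiments. The summed TPM of 7 striatal projection neuron markers had a highest value of 533 in C57BL/6J sham mice of 9 h, and a median of 228 and a highest value of 424 in CHI mice. At 24 and 72 h it ran from 681 to 1500 in the C57BL/6J mice. IL-1R1 nRestore mice at 9 h had 432 to 832 TPM. The part of tissue content in the time comparisons was not tested. Between sham and CHI mice of 9 h these sums overlapped, and 0 of 7 striatal markers passed in C57BL/6J mice, at a median log2 change of -0.37, although 4 of 7 were lower over the 4 strains together. In that pooled comparison, where Gabra2 and Gabrb2 passed, 5 of 5 choroid plexus and 4 of 6 microglial markers were lower too. The part of these cell types was not tested. Of all genes, 23.9% passed in that comparison, 2253 of them higher and 2230 lower. Its other marker lists are not reported here.

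Other marker lists in C57BL/6J mice at 9 h gave the setting of the Gabra2 decrease. Of 10 interneuron markers 0 passed with edgeR (median log2 fold change 0.00) and their summed TPM was 1070 to 1530 in sham and 1190 to 1740 in CHI mice. Of 8 pan-neuronal markers, 1 passed, Tubb3, a neuronal tubulin (-0.31). Of 8 glutamatergic markers, Neurod2 was higher (0.30) and Neurod6 lower (-0.29). Of 4 dentate granule cell markers, Calb1 was lower (-0.50, adjusted p = 0.012), and their summed TPM was 52.1 to 89.9 in sham and 44.2 to 79.4 in CHI mice. Of 6 microglial markers 3 were lower (P2ry12 -1.05, Aif1 -0.77, Tmem119 -0.40), and of 7 astrocyte markers Gfap (1.12) and Aldh1l1 (0.38) were higher. Of 5 endothelial markers, Ly6c1 (0.61) and Pecam1 (0.39) were higher and Flt1 lower (-0.28). None of the 6 thalamic, 6 oligodendrocyte, 5 cerebellar, 4 blood cell and 5 choroid plexus markers tested passed. The choroid plexus sum spread from 16.7 to 6000 TPM in sham and from 5.2 to 2520 TPM in CHI mice. The part of these cell types in the value of Gabra2 was not tested.

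In the same comparison 14.1% of all genes passed. The calls named below in other lists of the GABA system are not read as a departure from that share. Of 12 other GABA-A subunit genes 8 were tested and 1 passed: Gabrr2, a rho subunit, rose from 0.887 ± 0.422 TPM in 6 sham to 2.81 ± 0.821 TPM in 15 CHI mice (log2 fold change 1.91, SE 0.248, adjusted p = 1.03e-05). Its level was low, at most 4.28 TPM in any of the 200 mice. Of 21 genes for scaffold, assembly and trafficking, Insyn2a was lower (-0.31) and Iqsec3, an exchange factor of inhibitory synapses, higher (0.22).

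Of the 10 listed genes of chloride transport and its kinases, the kinase gene Wnk3 was lower (-0.34) and Wnk2 higher (0.23). The list of GABA synthesis, vesicle loading, uptake and breakdown is not reported here. Of 6 GABA-B receptor genes, the auxiliary subunit gene Kctd12b was lower (-0.34). The median log2 fold change over the 7 members was -0.10, over the 8 other subunits tested -0.16, and over all 16967 genes -0.01.

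Few pairs of members varied together. Over the 24 group means on the log2 CPM scale (counts scaled to library size), Gabra2 spanned 2.37, Gabra5 0.67, Gabrb2 0.57, Gabrb1 0.47, Gabra3 0.35, Gabra4 0.24 and Gabrd 0.24 log2 units, beside a median span of 0.691 over 20111 genes. Pearson's r across these group means, which share libraries and depth, was 0.888 between Gabra3 and Gabra5 and 0.721 between Gabrb1 and Gabrb2. It was -0.583 between Gabra2 and Gabra5, and all other pairs lay between -0.348 and 0.391.

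The genes with the most similar pattern were found by the same measure over the 24 group means. For Gabra2 they were Gdpd3 (r = 0.978), Rps13-ps1 (0.974) and Arhgap36 (0.973), of which Gdpd3 is one of the 12 genes that passed in all strain comparisons. For Gabra3 they were Atp6v0d1 (0.961), Fam171b and Necap1, and for Gabra5 Tmed2 (0.933), Etf1 and Vdac2. Epg5 (0.952), Klf7 and Ptprt were closest to Gabrb1, and Adra1a (0.918), Akap10 and Kcnh5 to Gabrb2. For Gabra4 (Spryd7 0.751, Tmem30a, Zfp708) and Gabrd (Lpo 0.700, Gm17518, Wfdc18) the closest genes were less similar.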

How the data were processed

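Poly(A)-selected libraries of one hemisphere per mouse were sequenced paired end. The authors aligned reads to GRCm39 with STAR and quantified them with Salmon, and deposited a table of estimated counts per gene (not all whole numbers, not normalized) and a table of TPM. Strandedness and annotation release are not given in the sources used here. Gene positions came from GENCODE, where 98.9% of the gene identifiers matched.

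Estimated counts were rounded and tested with edgeR 4.0.16 in R 4.3.3 (TMM, robust quasi-likelihood F test, sex and age as covariates; sex alone between sham mice of different time points). A gene was tested where the number of mice with 10 or more counts reached the size of the smallest group. P-values were adjusted over all genes tested (Benjamini-Hochberg), with a threshold of 0.05. Standard errors include the spread between mice, and PCR copies could not be told from separate molecules. Scripts were tested on simulated data. Alternatives used DESeq2 1.42.0 and limma 3.58.1.

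All table columns were used, no pair of libraries was identical, and groups came from the labels. All 7 members, other GABA-A subunits, up to 4 genes past the threshold per list and the 3 most similar genes per member are named. Some genes of these lists are not reported here. The members and lists were chosen with earlier results of these data known. Strain contrasts within sham or CHI mice were added after the data were seen.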

Additional observations from a re-analysis of the deposited data

Results flagged for a closer look

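In IL-1R1 eRestore sham mice at 24 h, the lowest of 5 mice had 33.7 TPM of Gabra2 and the next 75.0 TPM. Its gap, as a share of the group's range, was 0.813, above Dixon's critical value of 0.71. In IL-1R1 nRestore CHI mice at 72 h, the lowest of 6 mice had 25.0 TPM and the next 66.7 TPM, a share of 0.629 against a critical value of 0.625. Of 112 groups of a member tested, 2 were past the limit, where chance alone places about 1 in 20, or 5.6, there. Both mice were also the ones nearest to C57BL/6J mice on the 12 other strain genes, and their removal is given with the results above.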

How the results depend on the processing

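No paired analysis was possible because the groups compared share no replicate numbers in the labels. Mice do share experiments, and with experiment in place of age Gabra2 in C57BL/6J at 9 h had a log2 fold change of -0.48 (edgeR adjusted p = 0.00406), with the same number of members called in C57BL/6J and over the 4 strains at 9 h. Settings chosen after the data were seen left out experiment nIL-1-60 or the mice that stood with C57BL/6J. Limma and DESeq2 with gene-length offsets were also added then in the pooled fits and in the comparisons between strains. All strain contrasts were added then too. Of 482 pairs of a comparison and a setting, 457 kept the number of members called within 1.5 times and 25 did not, and no direction reversed among the genes tracked. The cause of these shifts was not tested.

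Leaving out each sham mouse in turn gave 1 to 3 members in C57BL/6J at 9 h and 0 to 0 in the other 11 comparisons of CHI with sham; CHI mice were not left out singly. Leaving out each mouse of the smaller group gave 1 to 1 in the 4 sham strain contrasts with under 6 mice in a group (IL-1R1 nRestore at 9, 24 and 72 h, IL-1R1 eRestore at 24 h), and was not run for the other 5. C57BL/6J at 9 h had 1 member called, and 2 with DESeq2 and its own size factors or with 10 counts in every mouse, and 0 with eIL-1-80 alone. IL-1R1 nRestore at 9 h had 0, and 1 with DESeq2 and its own size factors and 2 without a filter beyond 1 count. The 4 strains at 9 h had 2, and 1 with limma. The CHI effect of 9 h against 24 or 72 h in C57BL/6J had 0, and 1 each without nIL-1-60. Sham IL-1R1 eRestore mice of 9 h against 72 h had 0, and 1 with DESeq2 and its own size factors or 10 counts in every mouse.

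Among CHI mice against C57BL/6J, IL-1R1 gKO at 9 h had 1, and 2 with either form of DESeq2, 10 counts in every mouse or no covariates. IL-1R1 eRestore at 9 h had 1, and 2 with DESeq2 and its own size factors, 10 counts in every mouse, experiment in place of age, or limma. IL-1R1 nRestore at 9 h had 1, and 2 with no covariates. IL-1R1 gKO at 24 h had 2, and 1 with limma. IL-1R1 eRestore had 1 at 24 h, and 2 with either form of DESeq2, 10 counts in every mouse or limma, and had 1 at 72 h, and 3 with limma. In the main fits of these comparisons 8.26% to 14.1% of all genes passed.

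Gabra2 stayed past the threshold in every pair of a strain contrast and a setting (log2 fold change 1.12 to 2.43) and in 17 of 18 settings in C57BL/6J at 9 h. The share of all genes called in C57BL/6J at 9 h was 14.1%, and 1.68% with eIL-1-80 alone, 7.12% with the largest experiment alone, 7.6% with limma and 6.4% without a filter. At this depth all 7 members had reads in every mouse, whereas 4 of the 12 other subunits did not pass the filter on low counts in C57BL/6J at 9 h.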
